A study of Mus musculus with 18 samples.

Results

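Mouse embryonic stem (ES) cells of the wild type E14 line were given the liver X receptor (LXR) agonist GW3965 together with the retinoid X receptor (RXR) agonist LG268 for 24 h, and were compared with ES cells given LG268 alone for 24 h. The comparison asks what GW3965 adds to gene expression when the partner receptor of LXR already has its ligand. It takes every gene row of the 4 libraries concerned, 2 per group, out of 18 libraries in the series. The files list 23420 genes, of which 14865 had enough reads in these 4 libraries to be tested. Each ligand was used at 1 µM, the controls are E14 cells sampled at day 0 and labelled as the control of the LG268 and GW3965 treatments, and all 4 ES groups were grown with LIF and serum on gelatin without feeder cells. A second pair of groups, ES cells with GW3965 alone for 24 h and control ES cells, holds no library of the first pair and gives the same contrast without LG268. Nothing in the labels says that the 2 libraries of a group came from separate cultures, so the p-values measure only the spread between these libraries, which may be technical. All cells are of a single ES line in serum and LIF, and no library of this comparison comes from a neural stage.

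LXR works as a pair with RXR on DNA elements in which AGGTCA occurs as a direct repeat with a 4-base spacer (DR4), and this pair can be activated through either partner's ligand. In liver and macrophages the pair is known for switching on cholesterol export (Abca1, Abcg1), an E3 ligase that limits lipoprotein uptake (Mylip), the lipogenic transcription factor SREBP-1c (Srebf1) and, partly through that factor, fatty acid synthesis. RXR also pairs with retinoic acid receptors and PPARs, so LG268 can reach more genes than those of LXR.

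The 4 libraries held 19478916 and 20535663 gene counts with both ligands and 29202245 and 22380465 with LG268. Values below are CPM, counts scaled to a common total of gene counts, after TMM scaling over the 8 ES libraries, and log2 fold changes carry their standard error (SE). The replicates of the both-ligand group were the least alike of the ES groups. Their chi-square per gene was 10.7, against 3.08 for LG268, 2.86 for GW3965 alone and 3.40 for control cells. The difference followed base composition. Across 10479 genes, replicate 1 minus replicate 2 of the both-ligand group had a Spearman correlation of -0.59 with transcript GC content, and both ligands minus LG268 had one of -0.59 as well. The 10% of genes lowest in GC content had a median log2 fold change of 0.14 with both ligands, and the 10% highest one of -0.22. GW3965 minus control went the opposite way, with a correlation of 0.27 and medians of -0.03 and 0.06. The 2 trends therefore add in the difference between the responses. The part of base composition in single results was not tested. An alternative fit with GC and length offsets stands beside the results it alters. In it the correlation of both ligands minus LG268 was -0.01. Defining ES cell genes were high in all 4 libraries. Pou5f1 had 637 and 654 CPM with both ligands, against 659 and 650.0 CPM with LG268, and Nanog had 349 and 326 CPM with both ligands, against 321 and 327 CPM with LG268. The summed level of 24 pluripotency genes ranged from 3520.2 to 3540.1 CPM with both ligands and from 3519 to 3569 CPM with LG268.

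**Figure D1:**
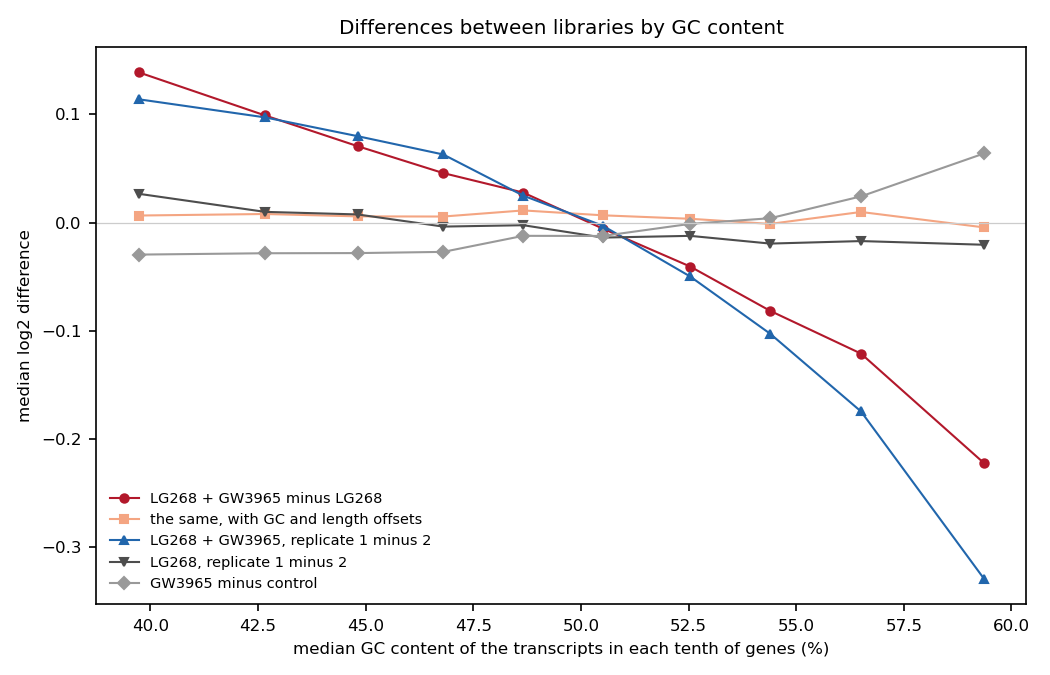
Median log2 difference between libraries (vertical axis) in 10 equal groups of genes ordered by the GC content of their transcripts (horizontal axis, percent). The line for both ligands minus LG268 and the line for the 2 both-ligand libraries slope downward together, LG268 replicates and GW3965 minus control stay closer to 0, and the offsets flatten the first line.

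GW3965 on top of LG268 raised a small set of genes, with lipid genes at its head. In the edgeR fit of the 4 libraries 56 genes changed at an adjusted p below 0.05, which is 0.377% of the genes tested. Of these 53 were higher with both ligands (0.357% of genes tested) and 3 were lower (0.0202%). The 53 rises spanned 1.28-fold to 14.2-fold with a median log2 fold change of 0.79, against a median of -0.00 over all genes tested, and 18 of them reached 2-fold. In all 56 genes both libraries of 1 group lay above both of the other. That is a description only, since the genes were called from these same libraries. Of the rises 20 belonged to the lists of LXR targets and fatty acid synthesis genes. All 56 calls kept their direction and stayed below the threshold when GC and length offsets were added, where 280 genes passed (1.88% of genes tested), 184 higher (1.24%) and 96 lower (0.646%). Without LG268 replicate 1 or 2, 30 and 34 of the 56 calls stayed below the threshold. The genes nearest the threshold were Tfrc and Zfp534 inside it (adjusted p = 0.047 each) and Dusp6 outside it (adjusted p = 0.052). How many further genes pass depends on the spread assumed: with the spread shared among all 8 ES libraries 308 genes were higher and 343 lower, with a median GC content of 45.3% among the higher, 55.7% among the lower and 50.1% among all genes tested.

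Cholesterol export genes gave the largest responses. Abca1 (chr4:53030787-53159895 on mm10), the transporter that loads cellular cholesterol and phospholipid onto apolipoprotein A-I, had 528 and 498 CPM with both ligands, against 37.03 and 35.7 CPM with LG268. Both treated libraries lay far above both LG268 libraries, a 14.2-fold rise (log2 fold change 3.83 ± 0.07, adjusted p = 3.47e-08). Abcg1 (chr17:31057675-31117988), which passes cholesterol to high-density lipoprotein, had 253 and 289 CPM with both ligands, against 52.95 and 51.03 CPM with LG268. This was a 5.24-fold rise without overlap (log2 fold change 2.39 ± 0.08, adjusted p = 3.83e-06). Srebf1 (chr11:60199089-60222581), the gene of the transcription factor SREBP-1, had 780.0 and 1209 CPM with both ligands, against 235 and 244 CPM with LG268. The both-ligand replicates stood apart from each other here, yet both exceeded both LG268 values, and the gene rose 4.18-fold (log2 fold change 2.06 ± 0.17, adjusted p = 0.000919). The Srebf1 transcripts have a GC content of 58.4%, in the range where replicate 1 read lower than replicate 2, and the log2 fold change was 2.23 with offsets.

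Mylip, the E3 ligase also known as Idol, had 31.6 and 34.4 CPM with both ligands, against 9.04 and 10.5 CPM with LG268, and rose 3.42-fold (log2 fold change 1.77 ± 0.12, adjusted p = 0.000318). Lpcat3, which places polyunsaturated chains into phospholipids, had 367 and 358 CPM with both ligands, against 135 and 134 CPM with LG268. It rose 2.70-fold (log2 fold change 1.44 ± 0.06, adjusted p = 9.27e-06). Of its exon bases 10.2% overlap Emg1 on the opposite strand, and since the strand setting of the counting is not given in the sources used here, part of its reads could come from that gene. Rnf145, an E3 ligase of the endoplasmic reticulum that is an LXR target in mouse liver, had 479 and 449 CPM with both ligands, against 267 and 269 CPM with LG268. Its rise was 1.74-fold (log2 fold change 0.80 ± 0.06, adjusted p = 0.00051). Lpl, the lipoprotein lipase, had 67.6 and 60.7 CPM with both ligands, against 43.8 and 39.1 CPM with LG268 and rose 1.55-fold with an adjusted p of 0.0315. That call was lost when LG268 replicate 2 was left out.

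These 7 genes were the called members of the LXR target list, out of 17 that could be tested and 23 listed. None was lower, and the list's median log2 fold change was 0.46 against -0.00 over all genes tested. More members passed when either both-ligand library was left out, but such a fit leaves a lone library and calls many more genes in all. Among the 10 tested members that did not pass, Apoc1 had 14.04 and 13.4 CPM with both ligands, against 9.68 and 9.93 CPM with LG268 (adjusted p = 0.151), and Pltp, the phospholipid transfer protein, had 114 and 143 CPM with both ligands, against 99.6 and 99.02 CPM with LG268 (adjusted p = 0.164). Both passed with offsets, at log2 fold changes of 0.63 and 0.53. Apoe, an LXR target in mouse macrophages, had 328 and 468 CPM with both ligands, against 403 and 396 CPM with LG268, and the groups overlapped (log2 fold change 0.00 ± 0.13, adjusted p = 0.993). Mlxipl, the carbohydrate response factor ChREBP, had 18.2 and 19.8 CPM with both ligands, against 20.8 and 19.8 CPM with LG268 (adjusted p = 0.708), again with overlapping groups. Abcg5, Abcg8, Apoc2, Apoc4 and Cyp7a1, genes best known from liver and intestine, were below the read filter, each under 0.5 CPM in every library.

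**Figure D2:**
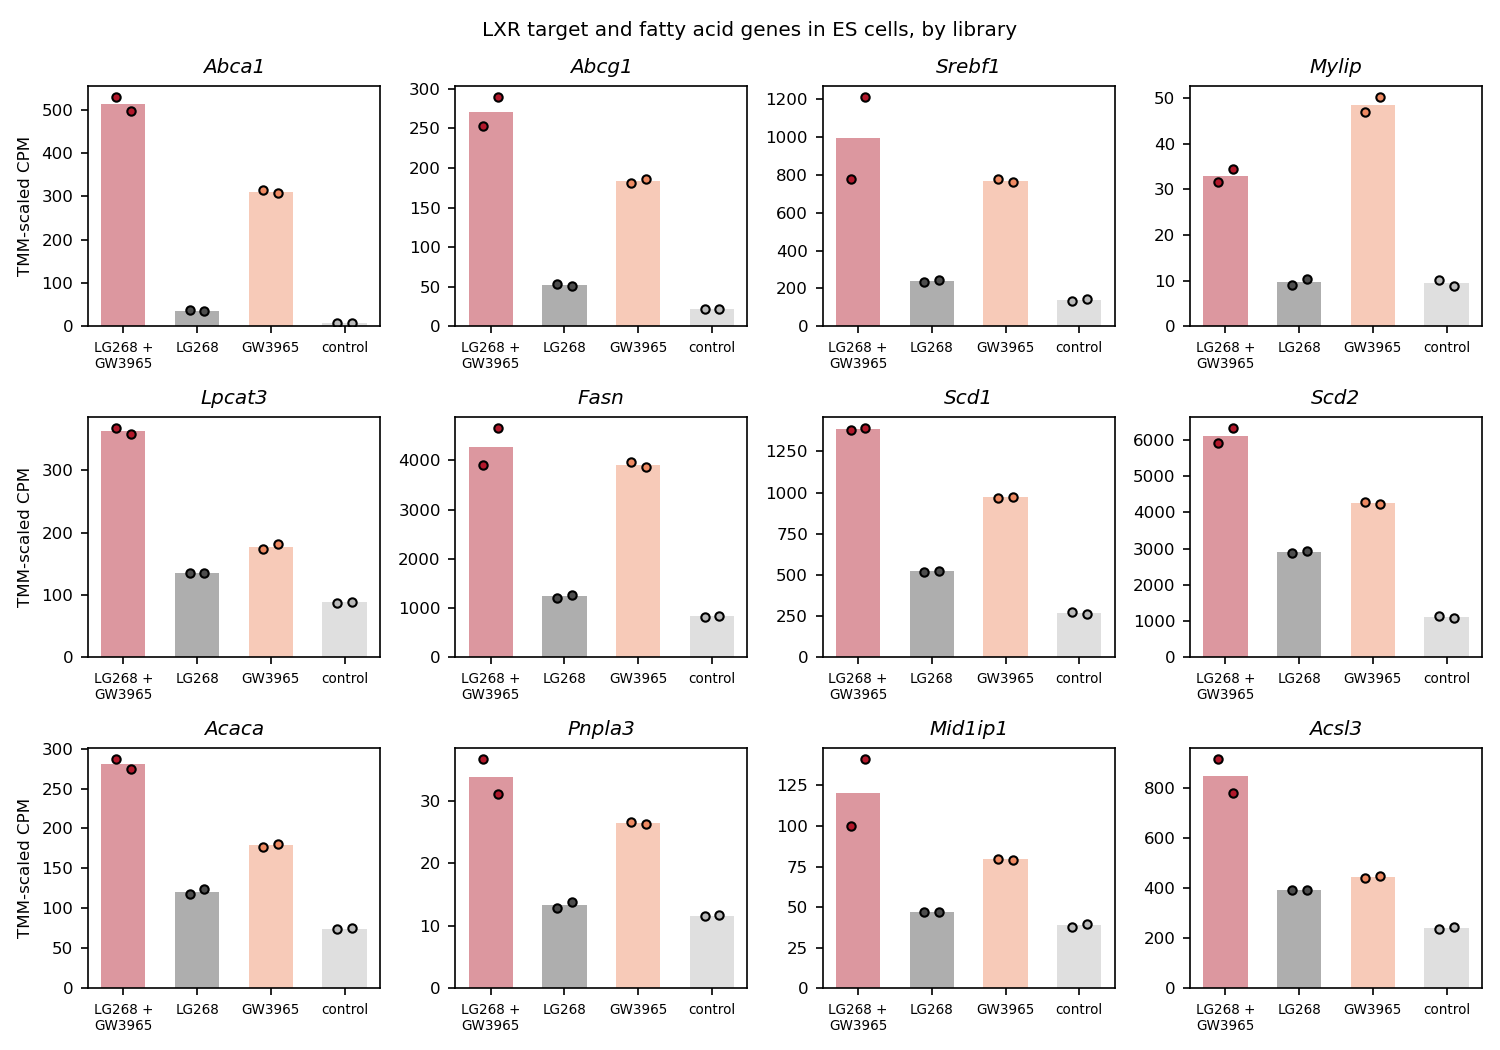
TMM-scaled CPM (vertical axes, linear from 0) of 12 LXR target and fatty acid genes in the 4 ES groups; points are the 2 libraries of a group and bars their mean. Both points with both ligands lie above both points with LG268 in every panel, and Mylip is the panel in which GW3965 alone is the highest group.

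The fatty acid pathway rose along most of its length. Of its 21 listed genes, all of them tested, 13 were higher and 0 were lower, with a median log2 fold change of 0.89, and the count with offsets was 18 higher and 0 lower. The steps that supply acetyl-CoA came first. Acly, ATP citrate lyase, had 1094 and 1116 CPM with both ligands, against 835 and 840.5 CPM with LG268, a 1.33-fold rise that was small but without overlap (adjusted p = 0.0123), and its call was lost without either LG268 library. Acss2, which makes acetyl-CoA from acetate, had 85.99 and 82.6 CPM with both ligands, against 36.5 and 44.99 CPM with LG268 and rose 2.09-fold (log2 fold change 1.06 ± 0.10, adjusted p = 0.0034). Acaca, acetyl-CoA carboxylase of the cytosol and the committed step, had 286 and 274 CPM with both ligands, against 118 and 124 CPM with LG268. It rose 2.33-fold (log2 fold change 1.22 ± 0.06, adjusted p = 4.16e-05), with the reservation that 30.4% of its 50-base stretches also occur in other genes. Mid1ip1, which in mouse activates acetyl-CoA carboxylase by driving its polymerization, had 99.8 and 141 CPM with both ligands, against 47.1 and 46.7 CPM with LG268 and rose 2.59-fold (log2 fold change 1.37 ± 0.14, adjusted p = 0.00403). An antisense gene covers 25.5% of its exon bases, so reads of the 2 genes cannot be told apart without strand.

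Fasn (chr11:120805846-120824547), the fatty acid synthase, had 3907 and 4648 CPM with both ligands, against 1208 and 1269.7 CPM with LG268. It gained more CPM than any gene described here but Scd2, and rose 3.48-fold (log2 fold change 1.80 ± 0.08, adjusted p = 1.5e-05). Per length it reached 391 CPM per kb with both ligands, against 113 CPM per kb with LG268. The elongase Elovl5 had 385 and 378 CPM with both ligands, against 209 and 205 CPM with LG268, a 1.86-fold rise (log2 fold change 0.89 ± 0.06, adjusted p = 0.000199). Its relative Elovl6, which lengthens palmitate to stearate, had 284 and 255 CPM with both ligands, against 219 and 220.3 CPM with LG268, a higher level in both libraries that did not pass (adjusted p = 0.119; 0.0295 with offsets). Fads2, a desaturase of polyunsaturated fatty acids, had 197 and 209 CPM with both ligands, against 128 and 135 CPM with LG268 and rose 1.56-fold (adjusted p = 0.00401), and its neighbour in the pathway Fads1 had 201 and 199 CPM with both ligands, against 149 and 163 CPM with LG268 without passing (adjusted p = 0.0722).

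The stearoyl-CoA desaturases, which place the first double bond into saturated chains, lie together on chromosome 19. Scd1 (chr19:44394455-44407879) had 1382 and 1390.0 CPM with both ligands, against 518 and 525 CPM with LG268, a 2.67-fold rise (log2 fold change 1.42 ± 0.05, adjusted p = 4.47e-06) with replicates that nearly coincide. Scd2 (chr19:44293674-44306864) had 5904 and 6314 CPM with both ligands, against 2879 and 2928 CPM with LG268, a 2.12-fold rise (log2 fold change 1.08 ± 0.05, adjusted p = 2.13e-05). At 1118 CPM per kb with both ligands, against 531 CPM per kb with LG268, Scd2 stood above Scd1 at 283 CPM per kb with both ligands, against 107 CPM per kb with LG268. Scd3 had 17.4 and 23.8 CPM with both ligands, against 10.2 and 10.5 CPM with LG268, a 2.02-fold rise near the threshold (adjusted p = 0.0435). Scd4 had 3.34 and 3.49 CPM with both ligands, against 1.23 and 1.43 CPM with LG268 and did not pass (adjusted p = 0.089), although its groups did not overlap either. The call of Scd3 was lost without LG268 replicate 1 and with the stricter filter. Between 3.97% and 6.57% of the 50-base stretches of Scd1, Scd2 and Scd3 are shared with other genes, the other family members among them, so the low values of Scd3 and Scd4 in particular could include reads of their relatives.

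Some genes that activate or store fatty acids were also called. Pnpla3, a lipase of lipid droplets, had 36.6 and 31.1 CPM with both ligands, against 12.9 and 13.8 CPM with LG268 and rose 2.56-fold (log2 fold change 1.35 ± 0.12, adjusted p = 0.00183). Of the acyl-CoA synthetases, which activate free fatty acids, Acsl3 had 915 and 779 CPM with both ligands, against 391 and 394 CPM with LG268, a 2.17-fold rise (log2 fold change 1.12 ± 0.08, adjusted p = 0.000338). Acsl1 had 48.4 and 52.7 CPM with both ligands, against 32.9 and 34.98 CPM with LG268 and Acsl4 had 265 and 251 CPM with both ligands, against 192 and 186 CPM with LG268, smaller rises with adjusted p = 0.0365 and 0.0206. Lpin1, the phosphatidate phosphatase lipin-1, had 131 and 155 CPM with both ligands, against 92.2 and 95.2 CPM with LG268 and was the only called gene of 20 on the phospholipid and triglyceride synthesis list, whose median log2 fold change was -0.05. Plin2, the coat protein of lipid droplets, had 167 and 143 CPM with both ligands, against 131 and 134 CPM with LG268 and did not pass (adjusted p = 0.239). The calls of Acsl1 and Acsl4 were lost without either LG268 library, and that of Lpin1 without LG268 replicate 1.

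**Figure D3:**
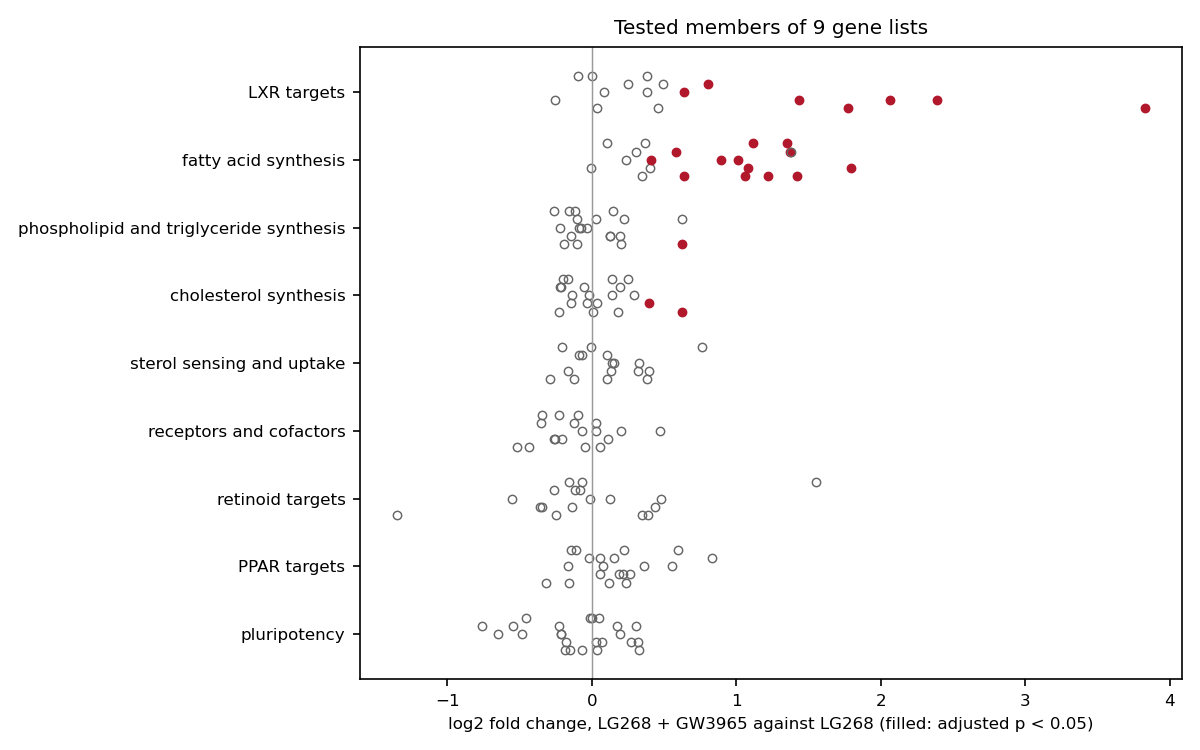
Log2 fold change of both ligands against LG268 (horizontal axis) for every tested member of 9 gene lists; filled points passed at an adjusted p below 0.05. Filled points fall in the LXR target and fatty acid lists, with 1 in phospholipid and triglyceride synthesis and 2 in cholesterol synthesis, and none in the 5 other lists.

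Acsl3 also shows what the counts cannot separate. Utp14b (chr1:78658038-78671512), a gene of ribosome assembly, starts within Acsl3 (chr1:78657825-78707743) on the same strand and shares 244 exon bases with it. Utp14b had 135 and 110.0 CPM with both ligands, against 45.3 and 48.9 CPM with LG268, and its 2.62-fold rise (log2 fold change 1.39 ± 0.10, adjusted p = 0.00056) ran beside that of Acsl3. Reads from Acsl3 transcripts that are counted to Utp14b cannot be told apart from its own transcription in gene counts, and the Utp14b value is uncertain for that reason.

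Promoter windows of 42 of the 53 raised genes were matched by symbol in RefSeq (GRCm38.p6, 250 bases before to 50 after each start). DR4 was searched as 2 copies of AGGTCA with 4 bases of any kind between them, with up to 2 mismatches in the copies, on both strands. It was found for 3 of the 42 genes (7.14%), against 293 of 10815 tested genes (2.71%) and 937 of 27025 genes in all (3.47%). The 3 windows are shown because they are the ones among the raised genes in which the LXR and RXR element was found so close to a start, and none belongs to the strongest responders. Each is printed along its gene's strand with the match in capitals; all the matches lie on the opposite strand, so the capitals are the reverse complement of the motif. In the Acsl3 window (chr1:78657575-78657874, plus strand) the match begins 112 bases before the start with 2 mismatches.
Acsl3: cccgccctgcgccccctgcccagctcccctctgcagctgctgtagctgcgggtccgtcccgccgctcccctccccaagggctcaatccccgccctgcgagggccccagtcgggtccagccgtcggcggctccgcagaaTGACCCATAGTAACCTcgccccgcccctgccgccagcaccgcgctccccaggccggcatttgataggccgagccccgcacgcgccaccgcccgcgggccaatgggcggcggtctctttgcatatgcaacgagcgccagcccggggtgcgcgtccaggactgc
In the Tmco4 window (chr4:138972033-138972332, plus strand) 2 matches with 1 mismatch each overlap, and the capitals cover both.
Tmco4: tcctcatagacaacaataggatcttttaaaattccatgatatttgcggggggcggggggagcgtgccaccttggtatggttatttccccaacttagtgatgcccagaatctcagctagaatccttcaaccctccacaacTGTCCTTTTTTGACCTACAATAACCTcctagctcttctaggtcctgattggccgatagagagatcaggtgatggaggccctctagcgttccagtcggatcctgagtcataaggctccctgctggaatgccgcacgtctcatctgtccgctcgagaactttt
In the Prrg4 window (chr2:104849801-104850100, minus strand) the match begins 67 bases before the start with 2 mismatches.
Prrg4: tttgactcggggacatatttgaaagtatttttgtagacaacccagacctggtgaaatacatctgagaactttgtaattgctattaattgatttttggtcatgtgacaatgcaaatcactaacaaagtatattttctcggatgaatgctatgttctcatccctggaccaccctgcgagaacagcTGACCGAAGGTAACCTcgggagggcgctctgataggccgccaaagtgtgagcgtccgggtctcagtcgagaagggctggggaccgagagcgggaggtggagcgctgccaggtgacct
Tmco4, a transmembrane protein gene, had 21.2 and 24.8 CPM with both ligands, against 12.1 and 11.1 CPM with LG268 and rose 1.99-fold (adjusted p = 0.014). Prrg4, which codes for a membrane protein with a vitamin K-dependent Gla domain, had 86.8 and 87.5 CPM with both ligands, against 54.3 and 52.6 CPM with LG268 and rose 1.64-fold (adjusted p = 0.00377). The sterol response element bound by SREBP was searched as TCACNCCAC with up to 1 mismatch on both strands. It was found in the windows of 14 of the 42 raised genes (33.3%), against 29.6% of tested genes. Mylip, Mid1ip1, Elovl5, Acly and Rnf145 were among the 14, as were H2-K1, Nampt, Plekhd1, Spp1 and Tnfrsf1b. Windows of the lowered genes Glrx5 and Limd2 also held a match. A match in such a window is a description of its letters only.

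Few cholesterol synthesis genes were called. Of 20 genes 2 were higher and 0 lower, and the median log2 fold change was -0.00. These counts fell when either LG268 library was left out and grew when either both-ligand library was left out. Each such fit leaves a lone library in 1 group, and those without a both-ligand library call many more genes in all. The call of Lss was lost without either LG268 library and that of Pmvk without LG268 replicate 1. Pmvk, phosphomevalonate kinase, had 120.0 and 110.4 CPM with both ligands, against 73.2 and 77.5 CPM with LG268 (1.54-fold, adjusted p = 0.0103), and Lss, lanosterol synthase, had 202 and 210.0 CPM with both ligands, against 157 and 158 CPM with LG268 (1.31-fold, adjusted p = 0.0365). Sqle, squalene epoxidase, had 149 and 155 CPM with both ligands, against 178 and 178 CPM with LG268, the opposite direction to those 2 genes and not past the threshold (adjusted p = 0.18). With offsets 4 genes of the list were higher and 2 lower. Of 17 genes of sterol sensing and uptake 0 passed in edgeR, 5 had an unadjusted p under 0.05 (all higher), DESeq2 and limma-voom called 2 and 1, and the edgeR fit of 8 ES libraries called 5. Over all genes, DESeq2 and limma-voom called 207 and 69 of 14865, and the fit of 8 ES libraries called 651 of 15261. The count of all genes higher at an unadjusted p under 0.05 is not given here, so the 5 sterol genes are a description only. Insig1, which retains SREBP in the endoplasmic reticulum, had 223 and 244 CPM with both ligands, against 182 and 179 CPM with LG268 (adjusted p = 0.0645; 0.00821 with offsets), and Srebf2, the sterol-regulated SREBP gene, had 359.6 and 492 CPM with both ligands, against 504 and 484 CPM with LG268 (adjusted p = 0.437). Cyp27a1, an enzyme that makes an oxysterol ligand of LXR, had 7.25 and 6.63 CPM with both ligands, against 7.30 and 6.84 CPM with LG268 (adjusted p = 0.96).

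Transcripts of the receptors themselves were not called. Nr1h2, the gene of LXRβ, had 37.5 and 65.1 CPM with both ligands, against 65.4 and 74.2 CPM with LG268, with replicate 1 of the both-ligand group low (adjusted p = 0.35). Nr1h3, the gene of LXRα, was near the floor of the assay with 1.23 and 1.18 CPM with both ligands, against 1.47 and 1.43 CPM with LG268 (adjusted p = 0.734). Per length, Nr1h2 stood at 15.3 CPM per kb with both ligands, against 20.8 CPM per kb with LG268, and Nr1h3 at 0.480 CPM per kb with both ligands, against 0.576 CPM per kb with LG268. Rxra had 18.7 and 23.7 CPM with both ligands, against 28.03 and 26.4 CPM with LG268 (adjusted p = 0.254) and Rxrb had 68.6 and 69.1 CPM with both ligands, against 71.5 and 76.8 CPM with LG268 (adjusted p = 0.551). Of 18 tested receptor and cofactor genes 0 passed in edgeR, DESeq2 or limma-voom (2 lower at an unadjusted p under 0.05 in edgeR), and their median log2 fold change was -0.11, which became 0.01 with offsets. Of all 14865 genes tested, 1219 were lower at that unadjusted p.

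Genes that answer to the other RXR partners were not called either. Of 18 tested retinoid targets 0 passed in edgeR, DESeq2 or limma-voom with the 4 libraries (2 higher and 1 lower at an unadjusted p under 0.05 in edgeR; 1 higher passed in the edgeR fit of 8 ES libraries), with a median log2 fold change of -0.10. Cyp26a1, which degrades retinoic acid, had 10.7 and 9.93 CPM with both ligands, against 12 and 10.5 CPM with LG268 (adjusted p = 0.712). Rarb, the retinoic acid receptor β, had 1.95 and 1.52 CPM with both ligands, against 2.22 and 1.97 CPM with LG268 (adjusted p = 0.684). Antisense genes overlap 38.4% of the Rarb exon bases, so its low values are uncertain without strand. Meis2 had 3.81 and 5.50 CPM with both ligands, against 6.03 and 5.86 CPM with LG268 (adjusted p = 0.45). Of 20 tested PPAR targets 0 passed with the same tools (5 higher and 1 lower at an unadjusted p under 0.05), with a median log2 fold change of 0.14. Over all 14865 genes tested, 1219 were lower at that unadjusted p, and the count of higher genes is not given here. Enpp2, the autotaxin gene, had 20.2 and 16.96 CPM with both ligands, against 19.98 and 20.3 CPM with LG268 (adjusted p = 0.698). These tests compare cells with GW3965 and cells without it, all of them in LG268, and leave the effect of LG268 itself aside.

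The remaining rises were chosen for naming after their values were seen, since 32 of the 56 called genes were in no list. Bcl2, the inhibitor of apoptosis, had 29.2 and 26.3 CPM with both ligands, against 13.4 and 10.6 CPM with LG268 and rose 2.32-fold (adjusted p = 0.00731). Plekhd1 had 30.2 and 29.7 CPM with both ligands, against 13.1 and 14.7 CPM with LG268 and rose 2.17-fold (adjusted p = 0.0034). Spp1, the secreted matrix protein osteopontin, had 233 and 207 CPM with both ligands, against 135 and 129 CPM with LG268, a 1.67-fold rise (adjusted p = 0.00377). Another gene, Gm42793, overlaps 18.8% of its exon bases on the same strand, so reads there cannot be told apart. Class I MHC genes were among the rises. H2-K1 had 381 and 433 CPM with both ligands, against 255 and 270.4 CPM with LG268 (adjusted p = 0.00731), H2-K2 had 21.96 and 30.96 CPM with both ligands, against 13.6 and 12.7 CPM with LG268 (adjusted p = 0.0466), and H2-Q10 had 11.6 and 12.9 CPM with both ligands, against 6.21 and 6.13 CPM with LG268 (adjusted p = 0.0251). Between 9.38% and 19.1% of the 50-base stretches of these 3 genes occur in other genes, so which of them the reads belong to is uncertain. Nampt, which makes the NAD precursor nicotinamide mononucleotide, had 634 and 626 CPM with both ligands, against 446 and 450.3 CPM with LG268 (adjusted p = 0.00474). Sat1, the polyamine acetyltransferase, had 188 and 166 CPM with both ligands, against 113 and 106 CPM with LG268 (adjusted p = 0.00637), and Tfrc, the transferrin receptor, had 737 and 687 CPM with both ligands, against 555 and 563 CPM with LG268 (adjusted p = 0.047). Trp53inp1 was the only called gene of 14 p53 targets, with 1225 and 1096 CPM with both ligands, against 846 and 835 CPM with LG268 (adjusted p = 0.0206). The calls of Nampt, Tfrc, Trp53inp1 and H2-Q10 were lost without either LG268 library, and those of H2-K2 and Tfrc with the stricter filter.

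The 3 genes that fell do not belong to lipid metabolism. Glrx5, the mitochondrial glutaredoxin that takes part in iron-sulphur cluster assembly, had 17.8 and 20.5 CPM with both ligands, against 34.03 and 32.6 CPM with LG268, and was 1.73-fold lower (log2 fold change -0.79 ± 0.11, adjusted p = 0.0217). Eif3f, a subunit of the translation initiation factor eIF3, had 217 and 252 CPM with both ligands, against 332 and 339 CPM with LG268 and was 1.42-fold lower (log2 fold change -0.51 ± 0.08, adjusted p = 0.032). Limd2, which codes for a LIM-domain protein, had 102 and 97.3 CPM with both ligands, against 137 and 141 CPM with LG268 and was 1.39-fold lower (log2 fold change -0.47 ± 0.07, adjusted p = 0.0229). In cells without LG268 none of these was called: Glrx5 had 35.8 and 32.6 CPM with GW3965 alone, against 32.1 and 32.3 CPM in control cells, Eif3f had 339.9 and 335 CPM with GW3965 alone, against 343 and 349 CPM in control cells and Limd2 had 135 and 142 CPM with GW3965 alone, against 145 and 139 CPM in control cells. The calls of Eif3f and Limd2 were lost without either LG268 library, and that of Glrx5 without LG268 replicate 1.

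The rises recurred in cells that had no LG268. All 53 raised genes were also higher with GW3965 alone than in control cells by the fitted log2 fold change. Those fold changes compare libraries that the first comparison did not use. In the test, 38 of the 53 (71.7%) passed. Over all genes 72 passed there (0.472% of 15261 tested), 69 higher (0.452%) and 3 lower (0.0197%). The test was fitted to all the ES libraries, so its spread came partly from the libraries of the first comparison. The 38 calls are therefore not independent of that comparison. Counted the other way, all 69 genes that GW3965 alone raised had a positive log2 fold change on top of LG268, and the 38 shared calls are 55.1% of them. Genes raised on top of LG268 and not called with GW3965 alone included Lpl (45.7 and 49.2 CPM with GW3965 alone, against 37.02 and 37.8 CPM in control cells), Acsl1 (40.6 and 44.8 CPM with GW3965 alone, against 33.6 and 34.6 CPM in control cells), Tfrc (614 and 611 CPM with GW3965 alone, against 572 and 587 CPM in control cells) and Trp53inp1 (818 and 788 CPM with GW3965 alone, against 764 and 731 CPM in control cells), where each was higher in both libraries without passing. Genes raised by GW3965 alone and not called on top of LG268 included Insig1, Pltp, Fads1, Scd4 and Slc25a1, each of which passed on top of LG268 with offsets. None of these genes passed the test of a difference between the responses.

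Set in order, the level with both ligands was the highest of the 4 ES groups for most raised genes, a description only, since the genes were chosen for high values in those libraries. In 50 of 53 both libraries with both ligands lay above both with GW3965 alone. Fasn and Nphs1 overlapped between those groups, with 3975 and 3856 CPM with GW3965 alone for Fasn. Mylip ran the other way, with 46.9 and 50.2 CPM with GW3965 alone, against 10.1 and 8.84 CPM in control cells: both values with GW3965 alone exceeded both with both ligands, while its LG268 and control levels overlapped. For 41 of the 53 genes both libraries with LG268 alone lay above both control libraries. The share of all tested genes that did so was not computed, so this count is a description only. Abca1 had 314 and 307 CPM with GW3965 alone, against 8.15 and 6.94 CPM in control cells, and its LG268 level of 37.03 and 35.7 CPM lay between those groups. For Lpcat3, which had 173 and 181 CPM with GW3965 alone, against 87.2 and 88.8 CPM in control cells, the level with both ligands was well above both single-ligand groups.

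The response to GW3965 differed with LG268 for 5 genes (0.0328% of 15261 tested), by the interaction term of the edgeR fit of the 8 ES libraries. That fit assumes a spread shared by the 4 ES groups. The both-ligand replicates varied more (chi-square per gene 10.7, against 3.08 for LG268), so these adjusted p-values may be too small. In all 5 the log2 fold change was smaller, or negative, on top of LG268. Abca1 differed most, by -1.54 ± 0.10 on the log2 scale, adjusted p = 1.63e-05: its log2 fold change was 3.83 on top of LG268 and 5.37 without LG268. In CPM the gain ran the other way, at 477 CPM on top of LG268 and 303 CPM without LG268. Scd2 differed by -0.84 ± 0.06 on the log2 scale, adjusted p = 1.66e-05, and gained 3206 CPM on top of LG268 and 3132 CPM without LG268. Abcg1 differed by -0.68 ± 0.10 on the log2 scale, adjusted p = 0.0344, with gains of 219 CPM on top of LG268 and 161 CPM without LG268. Scd1 differed by -0.43 ± 0.06 on the log2 scale, adjusted p = 0.0341, with gains of 864 CPM on top of LG268 and 702 CPM without LG268. These 4 genes therefore had a smaller fold from a higher start, with a gain in CPM that was as large or larger. Glrx5, which fell on top of LG268 and was not called with GW3965 alone, differed by -0.88 ± 0.13 on the log2 scale, adjusted p = 0.0344.

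Other strong responders did not pass this test. Fasn differed by -0.44 ± 0.09 on the log2 scale, adjusted p = 0.124, Mylip by -0.58 ± 0.15 on the log2 scale, adjusted p = 0.163 and Srebf1 by -0.40 ± 0.19 on the log2 scale, adjusted p = 0.336. Lpcat3 went the other way, with 0.43 ± 0.07 on the log2 scale, adjusted p = 0.0655. With offsets 46 genes passed (0.301%), among them Lpcat3 (log2 difference 0.49, adjusted p = 0.000964) and Fasn (log2 difference -0.26, adjusted p = 0.0119). Over the 53 raised genes the log2 difference was negative in 13 and its median was 0.20, a description only, since the genes were chosen for their response on top of LG268.

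**Figure D4:**
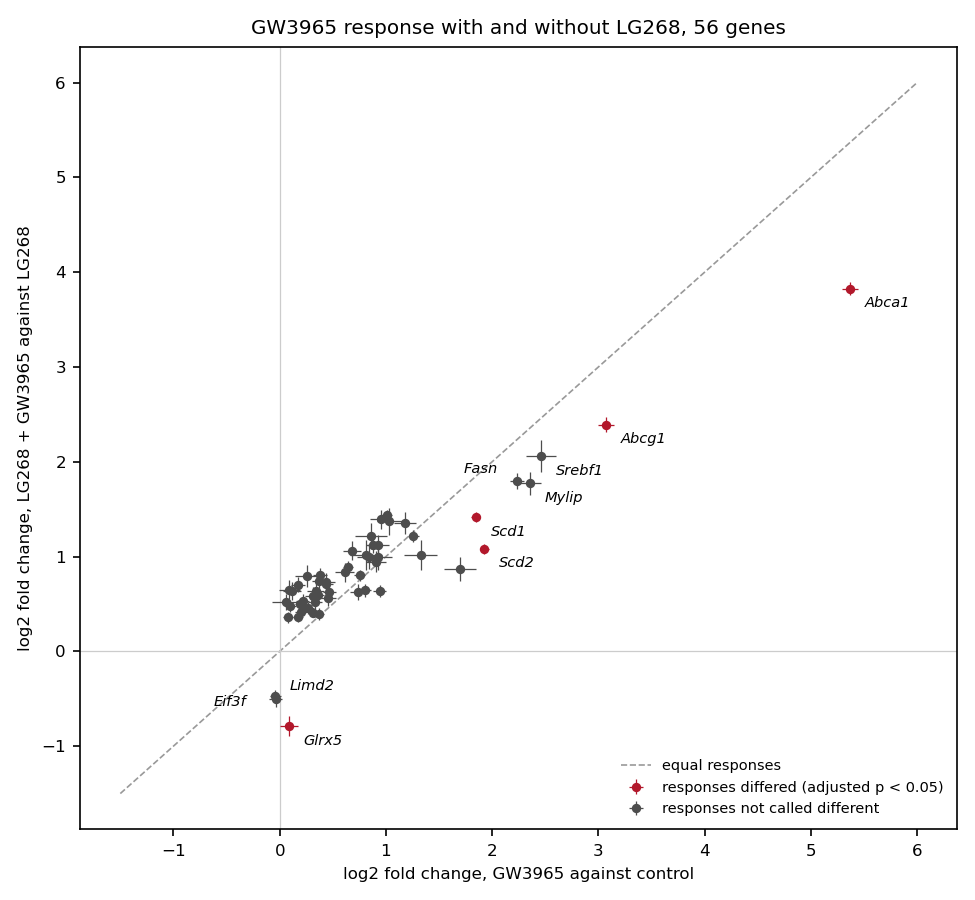
Log2 fold change of both ligands against LG268 (vertical axis) and of GW3965 against control (horizontal axis) for the 56 called genes; bars are SE and the dashed line marks equal responses. Abca1, Abcg1, Scd1, Scd2 and Glrx5, in red, lie below the line and passed the test of the difference, while most small responders lie above the line without passing.

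Some of these genes also responded to GW3965 in differentiated cultures of the same line, in an edgeR fit of all 18 libraries. At day 16 with GW3965 against day 16 without ligand, 24 of the 53 genes were higher and 4 lower, where 13.0% of all genes tested were higher and 18.7% lower. At day 17 the counts were 32 higher and 5 lower, with 17.2% of all genes higher and 3083 of the 17166 tested lower. Abca1 rose at both days, with log2 fold changes of 1.95 (adjusted p = 2.68e-12) and 1.13 (adjusted p = 1.59e-09). Abcg1 rose by 3.13 and 2.33 on the same scale, Srebf1 by 1.38 and 2.03, and Mylip by 1.23 and 1.48, all called. Fasn rose by 0.38 at day 16 (adjusted p = 0.000556) and by 1.33 at day 17 (adjusted p = 1.32e-10). Lpl and Nrk were lower at both days, with log2 fold changes for Lpl of -0.45 (adjusted p = 0.0145) and -0.87 (adjusted p = 3.57e-05). The exposure time in these cultures is not given in the sources used here, and the differentiated cultures hold other cells than ES cells.

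Cell identity genes stayed below the threshold in the edgeR fit of the 4 libraries. Of 24 pluripotency genes 0 passed, with a median log2 fold change of -0.04. At an unadjusted p under 0.05, 4 were higher and 7 lower, DESeq2 called 2 higher and 2 lower, limma-voom called 0, and the edgeR fit of 8 ES libraries called 2 higher and 4 lower. Over all 14865 genes tested, 1219 were lower at that unadjusted p, and DESeq2 called 119 higher and 88 lower. The count of all genes higher at that unadjusted p is not given here, so the 4 higher pluripotency genes are a description only. The fit of 8 ES libraries called 308 higher and 343 lower of 15261 genes. Klf4, a naive pluripotency factor, had 10.3 and 13.5 CPM with both ligands, against 20.4 and 20.1 CPM with LG268, a lower level in both libraries that did not pass (adjusted p = 0.0791; 0.0129 with offsets). Lefty1, an inhibitor of Nodal signalling, had 105 and 131 CPM with both ligands, against 129 and 138 CPM with LG268 (adjusted p = 0.427). Of 12 primed epiblast genes 0 passed in edgeR and limma-voom, 5 were lower at an unadjusted p under 0.05, DESeq2 called 2 lower, and the fit of 8 ES libraries called 4 lower. Their summed level was 895 and 923 CPM with both ligands, against 972 and 1020.1 CPM with LG268. The sum of 12 fibroblast genes was 382 and 466 CPM with both ligands, against 480.3 and 492 CPM with LG268, with 0 of 10 tested genes called by any of the 3 tools. Other sums were higher in both both-ligand libraries. Trophoblast genes summed to 570 and 643 CPM with both ligands, against 517 and 530 CPM with LG268, genes of two-cell-like cells to 233 and 281 CPM with both ligands, against 221 and 226 CPM with LG268, and neuronal genes to 516 and 517 CPM with both ligands, against 462 and 483 CPM with LG268. None of these 3 lists had a called gene, and with offsets 2 trophoblast genes and 1 neuronal gene passed, all higher. The part of these cell type genes in the results was not tested. Ttr, a visceral endoderm gene, was at 0 in all 4 libraries.

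Housekeeping lists were also without calls in the edgeR fit of the 4 libraries. Over all 14865 genes tested there, 1219 were lower at an unadjusted p under 0.05. DESeq2 called 88 of all genes lower, limma-voom 11, and the fit of 8 ES libraries 343 of 15261. Of 80 tested ribosomal protein genes 0 passed, with 3 higher and 19 lower at an unadjusted p under 0.05, while DESeq2 called 6 lower, limma-voom 2 lower and the fit of 8 ES libraries 1 higher and 8 lower. Of 75 respiratory chain genes 0 passed, with 2 higher and 16 lower at an unadjusted p under 0.05, while DESeq2 called 3 lower, limma-voom 1 lower and the fit of 8 ES libraries 7 lower. Atp5d, a subunit of ATP synthase that was named after its values were seen, lay just outside the threshold with 35.4 and 54.7 CPM with both ligands, against 86.4 and 95.1 CPM with LG268 (adjusted p = 0.054).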

How the data were processed

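Per the submitters' processing notes, reads were aligned to mm10 and processed with TopHat2 2.0.7, HTSeq 0.6.0, and Cufflinks and Cuffdiff 2.0.2. The authors deposited raw counts per gene symbol for each library. The annotation, strand setting and order of tools are not given in the sources used here. Each table ended with 5 summary lines, which were left out. Reads given to no gene were 65.2 to 65.9% in the 4 libraries compared. Positions, GC content and exon length came from GENCODE M21, which matched 98.4% of symbols, and promoters came from RefSeq.

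Genes were filtered with filterByExpr, scaled by TMM (factors 0.991 to 1.01) and tested with the quasi-likelihood test of edgeR 4.0.16 in R 4.3.3, two-sided, with Benjamini-Hochberg adjustment over all genes tested (a common biological coefficient of variation of 7.34%, with 2 residual degrees of freedom). The 4 libraries compared were fitted alone. The test of the difference between responses, and GW3965 against control, used the 8 ES libraries. Alternatives were other filters, DESeq2 1.42.0 with its size factors and Wald test, limma 3.58.1 with voom, wider fits, a replicate block, leaving out libraries, and GC and length offsets; the response at days 16 and 17, offsets with 8 libraries, and leaving out genes of shared sequence were added after seeing the data. The code was tested on simulated data. Named genes were the 10 largest rises and falls among called genes of 5 CPM or more without overlap, up to 4 called members per list with the smallest p, the 5 largest response differences each way, and 30 genes always given; list members and other genes beyond these were named after their values were seen. The members and the 27 gene lists were chosen with earlier results of these data known.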

Additional observations from a re-analysis of the deposited data

Results flagged for a closer look

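The fold response to GW3965 differed between cells with LG268 and cells without it for 5 genes, by an interaction term in the edgeR fit of the 8 ES libraries. That fit assumes a shared spread, while the both-ligand replicates varied more than the others, so its adjusted p-values may be too small. The values are the log2 response on top of LG268 minus the log2 response without LG268. The difference was -1.54 for Abca1 (adjusted p = 1.63e-05), -0.84 for Scd2 (adjusted p = 1.66e-05), -0.68 for Abcg1 (adjusted p = 0.0344), -0.43 for Scd1 (adjusted p = 0.0341) and -0.88 for Glrx5 (adjusted p = 0.0344). Abca1 and Scd2 stayed past the threshold in every alternative run, with largest adjusted p of 0.00132 and 0.00169. Abcg1, Scd1 and Glrx5 kept their sign throughout and lost the call when any single control, GW3965 or LG268 library was left out. With the replicate block Scd1 and Glrx5 also lost it, and with all 18 libraries Scd1 did. Of the 15261 genes tested, 2357 had an unadjusted p under 0.05 for this difference in the fit without offsets, and 5 passed after adjustment.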

How the results depend on the processing

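The direction of all 56 calls held in every alternative in which a gene had a value. All 56 calls passed with no filter, DESeq2 size factors, limma-voom with or without library weights, fits of 8 or 18 libraries, the replicate block, without either both-ligand library, and with offsets, 51 passed with the stricter filter, all 55 with an adjusted p passed the DESeq2 Wald test, and 55 passed with offsets and 8 ES libraries. Leaving out LG268 replicate 1 or 2 left 30 and 34 of them. The count of changed genes was 56. It was 508 with no filter (220 higher, 288 lower), 207 with the DESeq2 Wald test (119 higher, 88 lower), 347 with library weights (182 higher, 165 lower), 651 with 8 ES libraries, 722 with all 18 (280 higher, 442 lower), 280 with offsets and 762 with offsets and 8 ES libraries (393 higher, 369 lower). Leaving out 1 library gave 37 to 4606, the most without both-ligand replicate 2 (4606) and replicate 1 (1143), where the lone library is assumed to vary like the LG268 group. Without 11 genes of shared sequence 45 calls remained.

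Replicate numbers did not pair the libraries: deviations of same-numbered libraries correlated at 0.03 between the groups. With the replicate block 701 genes passed (247 higher, 454 lower), and the response difference passed for 4, with the calls of Scd1 and Glrx5 lost.

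LXR target calls were 7, with 11 under offsets and 8 ES libraries and 6 to 11 on leaving out 1 library; fatty acid calls were 13 (10 to 19). The response difference passed for 5 genes. It passed for 23 with all 18 libraries, 79 with the Wald test, 24 with limma-voom, 365 with library weights, 855 with no filter and 46 with offsets, and for 2 to 3328 on leaving out 1 library (315 and 3328 without both-ligand replicates 1 and 2). Apoe (log2 fold change 0.00) turned to -0.28 without both-ligand replicate 2 (adjusted p = 1.82e-10) and was 0.23 without replicate 1, and Pou5f1 to 0.16 with offsets and 8 ES libraries (adjusted p = 0.0476). The cause of these changes was not tested. No setting moved the median of all genes by more than 0.0153 (log2). In simulated data of the 4-library design, with no GC and length trend planted, 68% of 1.5-fold changes were recovered, so changes of that size can be missed. Of 157 calls in that simulation 11 were false. With a GC and length trend planted, 39 of 178 calls were false without offsets and 28 of 182 with offsets. Whether these rates hold for the libraries compared here was not tested. Their both-ligand replicates varied more than the LG268 replicates (chi-square per gene 10.7 against 3.08).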

Other observations

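In simulated data with a planted GC and length trend, 28 of 182 calls made with offsets were false. With GC and length offsets, where 1.88% of tested genes passed (1.24% higher and 0.646% lower), some genes outside the 56 calls passed. Sterol genes were among them in both directions: Insig1 was higher by 0.37 on the log2 scale with offsets, and Idi1, isopentenyl-diphosphate isomerase, had 102 and 94.1 CPM with both ligands, against 121 and 110.0 CPM with LG268 (log2 fold change -0.33, adjusted p = 0.0126). Of 24 pluripotency genes 2 were higher and 4 lower. Sox2 had 121 and 149.6 CPM with both ligands, against 189 and 192 CPM with LG268 (log2 fold change -0.47, adjusted p = 0.0142), Klf5 had 21.1 and 24.03 CPM with both ligands, against 31.6 and 30.7 CPM with LG268 (log2 fold change -0.47, adjusted p = 0.0295), and Dppa5a had 694 and 626 CPM with both ligands, against 532 and 544 CPM with LG268 (log2 fold change 0.35, adjusted p = 0.000896).

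The keratin genes Krt8 and Krt18, which form the filaments of simple epithelia, were higher by 0.44 and 0.48 in the same fit (adjusted p = 0.00172 and 0.000121). Krt18 had 251 and 271 CPM with both ligands, against 204 and 209 CPM with LG268. Of 80 ribosomal protein genes 4 were lower and of 75 respiratory chain genes 3, with 0 higher in both lists. Rplp2, a ribosomal stalk protein gene, had 17.4 and 28.4 CPM with both ligands, against 46.9 and 48.6 CPM with LG268 (log2 fold change -0.96, adjusted p = 0.00336), and Atp5d fell by 0.80 on the log2 scale (adjusted p = 0.000797). Their response also differed from that without LG268, by -1.18 for Rplp2 and -0.83 for Atp5d (adjusted p = 0.00341 and 0.000964). These genes were named after their values were seen.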
